A study of Homo sapiens with 4 samples.

Results

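The ERBB ligands are the growth factors of the epidermal growth factor (EGF) family, and 9 of their genes were followed here by symbol, HBEGF, NRG1, BTC, EREG, AREG, TGFA, EPGN, NRG2 and NRG4. Of the 9 genes, 8 had a probe set annotated to that symbol alone and were measured, and AREG has no value here. They were 8 of 18239 genes with such a probe set, and they had 33 of the 49386 probe sets of the table. For each gene the probe set of highest mean over the 4 arrays was used, and all 8 were among the 14965 genes tested, although EPGN, NRG2 and NRG4 lay close to the log2 value of 4.14 under which genes were left out as dim. The study measured total RNA of PC9, a line from a human lung adenocarcinoma that carries an activating mutation of the EGF receptor EGFR, and of MTAC-P, a lung cancer line described as resistant and as obtained under mild exposure to a tyrosine kinase inhibitor (TKI). There were 2 arrays of each line, and all cells were grown in the same serum-containing medium. The inhibitor, its dose, the parent of MTAC-P and the presence of drug at harvest are not given in the sources used here. The labels call the arrays duplicates without naming separate cultures, so p-values measure only the spread between these arrays, which may be technical.

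Ligands of this family are made as membrane-anchored precursors, and proteases of the ADAM family cut most of them free at the cell surface. TGFA, AREG and EPGN bind EGFR, HBEGF, BTC and EREG bind EGFR and ERBB4, NRG1 and NRG2 bind ERBB3 and ERBB4, and NRG4 binds ERBB4. The bound receptors pair with each other or with ERBB2, which has no known ligand, and signal through RAS and ERK and through PI3 kinase. In lung cancers driven by mutant EGFR, growth factors that engage ERBB receptors are studied as a way around EGFR inhibitors. The comparison of MTAC-P with PC9 asks which ligand genes separate the resistant line from the sensitive one.

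EPGN, EREG, AREG and BTC are 4 consecutive protein-coding genes of chromosome 4 in the RefSeq annotation of GRCh38.p14, and HBEGF lies apart from them on chromosome 5. The promoters of EPGN, EREG and BTC are shown because these neighbours all had lower means in MTAC-P, and that of HBEGF because it had the ligand difference with the smallest p. Each is the RefSeq sequence of the 250 bases before the annotated start, 5′ to 3′ on the gene's strand, in GRCh38.p14, at chr4:74308220-74308469 for EPGN (plus strand), chr4:74364895-74365144 for EREG (plus strand), chr4:74794524-74794773 for BTC (minus strand) and chr5:140346604-140346853 for HBEGF (minus strand). Capitals mark matches, on either strand, to the TATA box TATAAA, the cAMP response element TGACGTCA, the AP-1 site TGACTCA, the TEAD site GGAATG, the CCAAT box CCAAT and the GC box GGGCGG.
EPGN promoter: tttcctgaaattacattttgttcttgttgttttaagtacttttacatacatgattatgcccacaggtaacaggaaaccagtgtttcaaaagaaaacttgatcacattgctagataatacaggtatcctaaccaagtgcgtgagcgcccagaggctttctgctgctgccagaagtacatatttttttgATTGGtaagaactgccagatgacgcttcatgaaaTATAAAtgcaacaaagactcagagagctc
EREG promoter: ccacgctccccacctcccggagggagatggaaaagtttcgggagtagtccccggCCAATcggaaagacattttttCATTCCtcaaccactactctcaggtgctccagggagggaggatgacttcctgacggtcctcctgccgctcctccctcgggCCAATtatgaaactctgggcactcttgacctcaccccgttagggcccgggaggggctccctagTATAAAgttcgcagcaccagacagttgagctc
BTC promoter: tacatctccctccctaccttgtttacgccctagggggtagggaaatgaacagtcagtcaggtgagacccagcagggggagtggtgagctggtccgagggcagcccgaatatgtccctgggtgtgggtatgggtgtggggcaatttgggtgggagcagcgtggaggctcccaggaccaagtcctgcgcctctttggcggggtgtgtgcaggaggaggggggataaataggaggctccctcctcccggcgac
HBEGF promoter: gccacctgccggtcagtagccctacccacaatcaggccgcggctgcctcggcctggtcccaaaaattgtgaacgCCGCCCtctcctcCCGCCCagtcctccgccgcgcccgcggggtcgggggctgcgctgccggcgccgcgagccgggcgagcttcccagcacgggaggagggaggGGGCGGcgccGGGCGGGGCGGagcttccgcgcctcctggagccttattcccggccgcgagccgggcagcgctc
Promoters of 8 of the 9 ligand genes were matched by symbol, all but NRG1. TATAAA was found for 4 of these 8 genes, EREG, AREG, EPGN and NRG4, and in 10.7% of the 35116 promoters of the reference. Its first letter lay 29 bases before the start in EPGN, 32 in EREG, 29 in AREG and 8 in NRG4. The CCAAT letters, found in 32.0% of all promoters, occurred in EPGN and EREG, and the TEAD letters, found in 11.9%, occurred in EREG and NRG4. HBEGF held 5 matches to the GC box, some of them overlapping, and GC boxes were found in 42.6% of all promoters. TGACGTCA occurred among the ligands in AREG alone and in 1.65% of all promoters, and the AP-1 letters occurred in 0 of the 8 genes and in 4.20% of all promoters. None of the 6 motifs was found in the BTC window. A match is only a run of letters, and no binding was measured.

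Among the ligands, HBEGF and NRG1 had higher means in MTAC-P, BTC and EREG had lower means, and TGFA, EPGN, NRG2 and NRG4 differed by less than 0.26 on the log2 scale. No ligand gene passed the test over all genes: 0 of 8 had a limma adjusted p under 0.05, against 3 of the 14965 tested genes (0.0200%), and the lowest limma adjusted p of a ligand was 0.0996, for HBEGF. At an unadjusted limma p under 0.05 there were 4 of 8 ligands, against 18.9% of tested genes. Of these, HBEGF and NRG1 were higher in MTAC-P, as were 7.76% of tested genes, and BTC and EREG were lower, as were 11.1%. For 6 of the 8 ligands the arrays of PC9 and MTAC-P did not overlap, against 53.2% of tested genes, with 3 higher and 3 lower in MTAC-P against 28.3% and 24.9%. Means were higher in MTAC-P for 3 of 8 ligands, against 53.8% of tested genes, and lower for 5, against 46.2%. The median log2 difference, MTAC-P minus PC9, was -0.18 over the 8 ligands and 0.031 over all tested genes. An exact permutation test of 2 arrays against 2 cannot give a 2-sided p below 0.333, so single genes were judged by limma's fit across all genes. RNA came from whole cultures, in which fewer expressing cells and less RNA per cell cannot be told apart.

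**Figure D1:**
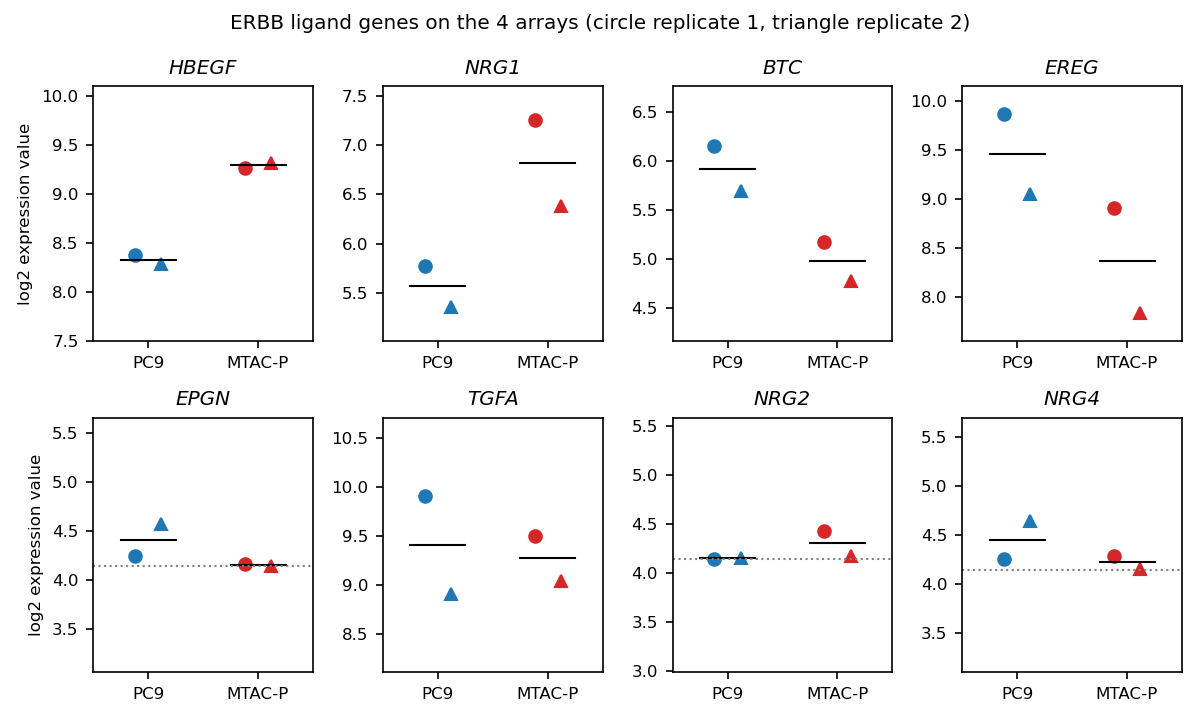
Log2 expression values of the 8 measured ligand genes, with 1 panel per gene, a vertical span of the same size in each, circles for replicate 1, triangles for replicate 2, bars for line means and a dotted line at the dim value of 4.14 where it falls in the panel. The lines are separated for HBEGF, NRG1, BTC and EREG, whereas the arrays of TGFA overlap and EPGN, NRG2 and NRG4 lie near the dotted line.

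HBEGF encodes heparin-binding EGF-like growth factor, whose membrane-bound precursor is also the receptor of diphtheria toxin. Its log2 values were 8.37 and 8.28 in PC9, against 9.27 and 9.32 in MTAC-P. Both MTAC-P arrays lay above both PC9 arrays, and the duplicates of each line were close, at 8.33 ± 0.066 in PC9 and 9.29 ± 0.035 in MTAC-P (SD, n = 2). The mean of HBEGF in MTAC-P was 1.95-fold that in PC9, a log2 difference of 0.96 (SE 0.15, 95% interval 0.60 to 1.33, limma adjusted p = 0.0996). A difference of this size or more was seen in 2.31% of tested genes. When 1 array was left out, the difference stayed between 0.92 and 1.01. The other probe set of HBEGF read 4.81 and 4.51 in PC9 and 5.31 and 5.20 in MTAC-P, again with no overlap, and differed by 0.59. Its means, 4.66 and 5.25, lay within the range of the line means of single background control probe sets, 3.59 to 7.36.

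NRG1 encodes neuregulin 1, a ligand of ERBB3 and ERBB4 that is made in many isoforms. Its brightest probe set read 5.77 and 5.36 in PC9, against 7.26 and 6.38 in MTAC-P. Both MTAC-P arrays were above both PC9 arrays, but the MTAC-P duplicates differed from each other by 0.88, which is over the difference of 0.42 between the PC9 duplicates. The log2 difference was 1.26 (SE 0.31, 95% interval 0.51 to 2.00, limma adjusted p = 0.133), a 2.39-fold higher mean in MTAC-P, and 0.722% of tested genes had a difference of at least that size. The difference was 0.82 when MTAC-P replicate 1 was left out and 1.69 when MTAC-P replicate 2 was.

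The other probe sets of NRG1 did not all follow the brightest one. Of the 8 probe sets, 5 had means above the dim value, and 4 of these 5 were higher in MTAC-P. The fourth by mean, at 4.44 ± 0.019 in PC9 and 5.14 ± 0.20 in MTAC-P (SD, n = 2), had arrays that did not overlap and a difference of 0.71. The second by mean differed by 0.49 with overlapping arrays, and the third by 0.28 with arrays that did not overlap. The fifth differed by -0.26, and the 3 probe sets under the dim value differed by -0.24, 0.18 and -0.19. The mean of all 8 probe sets differed by 0.28. Which NRG1 transcripts each probe set covers is not given in the sources used here.

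BTC encodes betacellulin, a ligand of EGFR and ERBB4. Its log2 values were 6.16 and 5.69 in PC9 and 5.18 and 4.78 in MTAC-P. Both MTAC-P arrays lay below both PC9 arrays, with means of 5.93 ± 0.33 in PC9 and 4.98 ± 0.28 in MTAC-P (SD, n = 2). The log2 difference was -0.95 (SE 0.23, 95% interval -1.49 to -0.40, limma adjusted p = 0.129), so that the mean was 1.93-fold higher in PC9. It ranged from -1.18 to -0.72 when 1 array was left out. The second BTC probe set, at 4.52 ± 0.16 and 4.45 ± 0.010, differed by only -0.074 with overlapping arrays. The mean of both probe sets differed by -0.51.

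EREG encodes epiregulin, which binds EGFR and ERBB4. Its values were 9.87 and 9.05 in PC9 and 8.90 and 7.84 in MTAC-P. The lines did not overlap, but the gap between the lower PC9 array and the higher MTAC-P array was smaller than the distance between the duplicates of either line. The log2 difference was -1.09 (SE 0.40, 95% interval -2.06 to -0.11, limma adjusted p = 0.230), so that the mean was 2.12-fold higher in PC9. Leaving out MTAC-P replicate 2 gave -0.55, and leaving out MTAC-P replicate 1 gave -1.62. The second EREG probe set was also lower in MTAC-P, by -0.48, with overlapping arrays, at 6.64 and 5.45 in PC9 and 5.81 and 5.33 in MTAC-P. The remaining 2 probe sets, both with line means of at most 4.59, differed by 0.067 and 0.39, and the mean of all 4 differed by -0.28.

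TGFA encodes transforming growth factor alpha, a ligand of EGFR. It read 9.91 and 8.91 in PC9 and 9.50 and 9.05 in MTAC-P, so that both MTAC-P arrays fell between the PC9 arrays. The log2 difference was -0.14 (95% interval -0.96 to 0.69, limma adjusted p = 0.855), an interval that takes in differences of almost 1 in the lower direction. The sign changed with the array left out, from -0.63 without PC9 replicate 2 to 0.36 without PC9 replicate 1. The other 3 probe sets of TGFA differed by 0.34, -0.32 and 0.010.

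The remaining ligand genes, EPGN, NRG2 and NRG4, had line means of 4.15 to 4.44 on their brightest probe sets. The 23 background control probe sets of the array averaged 4.13 in PC9 and 4.22 in MTAC-P, close to the values of these genes, and no detection call came with the values. Single control probe sets had line means from 3.59 to 7.36, a range that also holds the values of NRG1 and BTC, so the level at which a ligand is undetected was not determined. EPGN, which encodes epigen, read 4.25 and 4.57 in PC9 and 4.17 and 4.15 in MTAC-P, with a difference of -0.25 (95% interval -0.68 to 0.17). Of its 8 probe sets, 7 were lower in MTAC-P, with differences from -0.42 to 0.10, and 3 had means above the dim value. NRG2, a neuregulin gene, read 4.14 and 4.16 in PC9 and 4.43 and 4.18 in MTAC-P, and differed by 0.15 (95% interval -0.24 to 0.55). NRG4, which encodes a neuregulin that binds ERBB4, read 4.25 and 4.64 in PC9 and 4.29 and 4.15 in MTAC-P, and differed by -0.22 (95% interval -0.68 to 0.23). Leaving out 1 array moved all 3 by over 1.5 times. EPGN ran from -0.42 without PC9 replicate 1 to -0.091 without PC9 replicate 2, NRG4 from -0.42 to -0.029 without the same arrays, and NRG2 from 0.028 without MTAC-P replicate 1 to 0.28 without its replicate 2. If these 3 genes gave signal above background, which was not determined, a low level compresses fold differences and theirs may be understated.

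**Figure D2:**
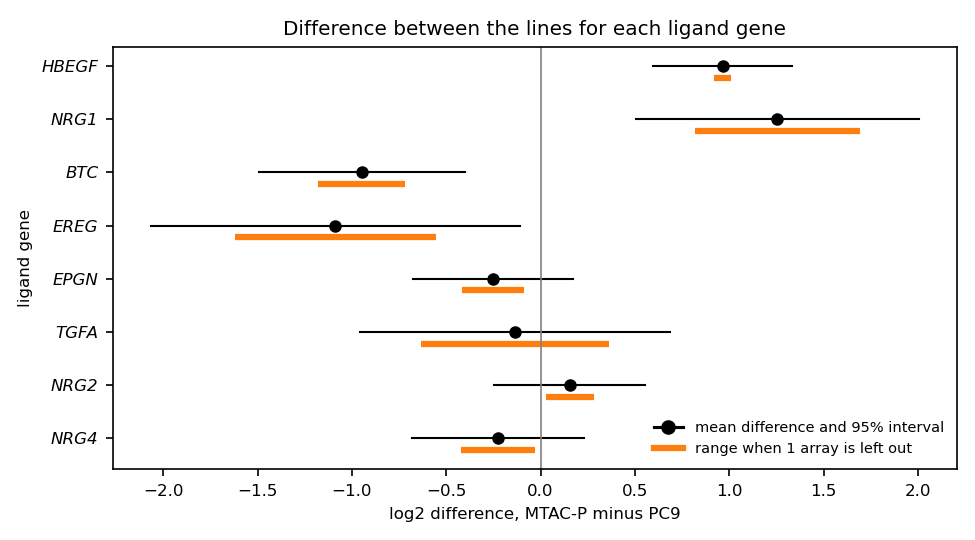
Log2 difference, MTAC-P minus PC9, of each ligand gene on the horizontal axis, with limma's 95% interval as a black line and the range of the 4 values with 1 array left out as an orange bar. The intervals of HBEGF, NRG1, BTC and EREG lie to 1 side of 0, and the orange bar of TGFA crosses 0, running from -0.63 to 0.36.

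**Figure D3:**
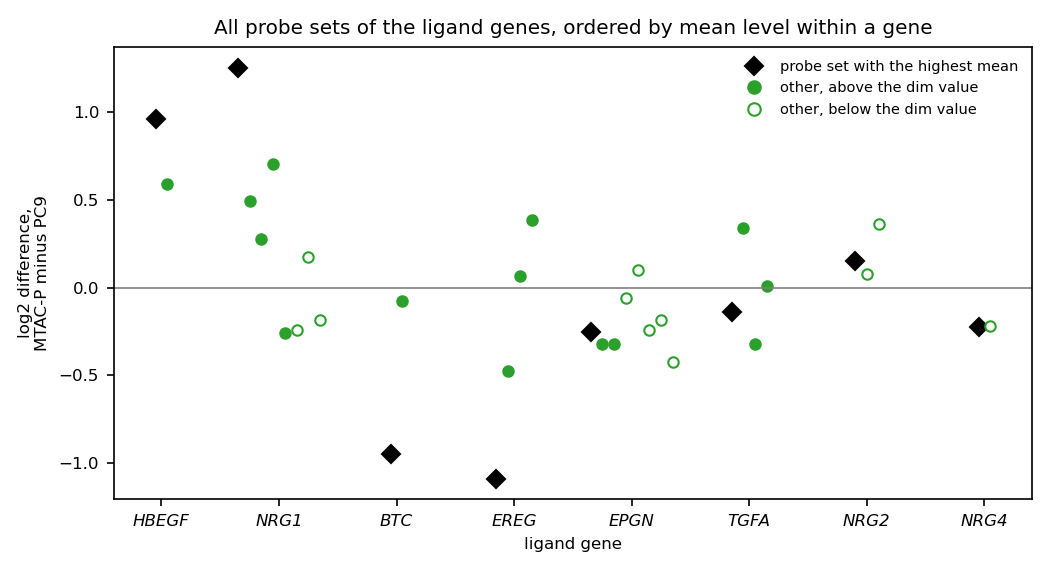
Log2 difference, MTAC-P minus PC9, of all 33 probe sets of the 8 ligand genes, in order of mean level within each gene, with diamonds for the probe set used and open circles for probe sets under the dim value of 4.14. Both HBEGF probe sets are above 0, while those of NRG1 run from -0.26 to 1.26, those of EREG from -1.09 to 0.39 and those of TGFA from -0.32 to 0.34.

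The ligand genes of the chromosome 4 run, EPGN, EREG and BTC, were the 3 of its 4 genes with a value, and all 3 had lower means in MTAC-P with arrays that did not overlap, as had 24.9% of tested genes. Of the 10 nearest tested genes, 5 on each side of the run, 7 also had lower means and 3 had higher means in MTAC-P, against 46.2% and 53.8% of tested genes, with a median log2 difference of -0.28. The 3 higher genes had low means in PC9 and MTAC-P, PF4V1 4.31 and 4.44, CXCL3 4.78 and 4.88, ODAPH 4.19 and 4.25. So had MTHFD2L among the lower genes, at 4.84 and 4.31. The arrays did not overlap for 4 of the 10, against 24.9% of tested genes in that direction, MTHFD2L at -0.53, PARM1 at -0.33, THAP6 at -0.40 and G3BP2 at -0.30. The chemokine genes CXCL1 at -0.26 and CXCL2 at -0.63, with overlapping arrays, and CXCL3 at 0.097 lie on 1 side of the run. On the probe sets used, EREG and BTC differed by more than any of the 10 neighbours. The mean of all their probe sets differed by -0.28 for EREG and -0.51 for BTC. Those are smaller than the differences of CXCL2 and MTHFD2L. Other probe sets of the neighbours were not compared. This comparison with neighbours was chosen after the values were seen, and differences between genes of a run were not tested.

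**Figure D4:**
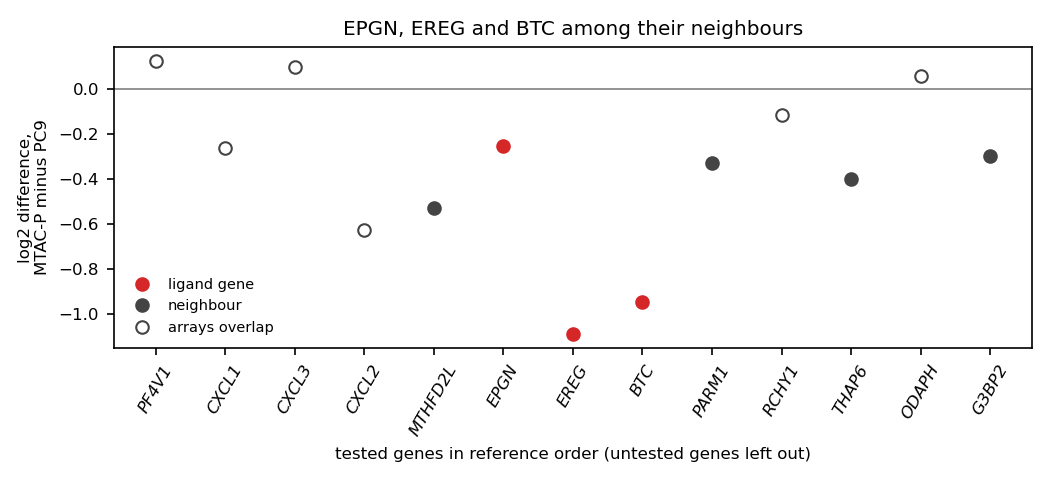
Log2 difference, MTAC-P minus PC9, of EPGN, EREG and BTC (red) and of the 5 nearest tested genes on each side, in the gene order of GRCh38.p14, with open circles where the arrays of the lines overlap. With the probe set of highest mean for each gene, EREG at -1.09 and BTC at -0.95 are the lowest points, and 7 of the 10 neighbours lie below 0.

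The receptors of these ligands had nearly equal means in both lines on the probe sets used. EGFR read 10.65 and 10.66 in PC9 and 10.79 and 10.36 in MTAC-P, a difference of -0.078, and its 6 probe sets above the dim value ranged from -0.78 to 0.76. ERBB2 differed by -0.034, ERBB3 by -0.074 and ERBB4, with means of 4.26 and 4.15, by -0.11, all with overlapping arrays. For each of the 4 receptors the sign changed in at least 1 of the 4 fits with an array left out. EGF, the founding ligand of the family, differed by -0.033, with means of 4.73 and 4.69. The mean of NRG3 over the 4 arrays lay under the dim value, so it was not tested. Its brightest probe set read 4.24 ± 0.061 in PC9 and 3.71 ± 0.089 in MTAC-P (SD, n = 2), a difference of -0.52 with arrays that did not overlap, while its other 3 probe sets differed by 0.12 to 0.17.

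The shedding and trafficking list holds proteases that release ligands, proteins that carry sheddases to the surface and the protease inhibitor TIMP3. Of its 13 genes, all tested, 0 passed limma's adjusted p threshold of 0.05, and 6 had an unadjusted p under 0.05, against 18.9% of tested genes. Means in MTAC-P were higher for 5 genes, against 53.8% of tested genes, and lower for 8, against 46.2%, and their median difference was -0.068. The largest difference was that of ADAM8, a metalloprotease gene, which read 5.41 and 5.04 in PC9 and 6.24 and 6.57 in MTAC-P (log2 difference 1.18, SE 0.20, limma adjusted p = 0.103). All 4 probe sets of ADAM8 were higher in MTAC-P, by 0.15 to 1.18. ADAM17, the main sheddase of HBEGF, TGFA and AREG, differed by -0.29, but only 1 of its 4 probe sets above the dim value had that sign. ADAM10, a sheddase of BTC, differed by -0.67, with all 4 probe sets lower in MTAC-P by -0.88 to -0.078 and a difference of -0.32 without MTAC-P replicate 2. RHBDF2, which encodes an iRhom protein that guides ADAM17 to the surface, read 6.14 and 6.01 in PC9 and 6.54 on both MTAC-P arrays, a difference of 0.47. Another probe set of RHBDF2 differed by -0.066. RHBDF1, the other iRhom gene of the list, had means of 7.17 in PC9 and 7.36 in MTAC-P, a difference of 0.19 with overlapping arrays. Also at an unadjusted limma p under 0.05 were ADAM19 at 0.87, ADAM12 at -0.80 and ADAM9 at -0.49, none with overlapping arrays. Of their probe sets above the dim value, 1 of 2 of ADAM19, 2 of 4 of ADAM12 and 4 of 4 of ADAM9 had that sign.

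Of 12 listed adaptor and relay genes downstream of the receptors 9 were tested, 6 with higher and 3 with lower means in MTAC-P, with a median of 0.13, and 0 passed limma's threshold, with 1 at an unadjusted p under 0.05, against 18.9% of tested genes. SHC1, an adaptor that couples ERBB receptors to RAS, had the largest difference, 0.51 (SE 0.18, limma adjusted p = 0.216), and its 4 probe sets were higher by 0.50 to 1.04. Of 9 listed genes that restrain or degrade the receptors 8 were tested, 2 with higher and 6 with lower means in MTAC-P, with a median of -0.43, and 0 passed limma's threshold, with 2 at an unadjusted p under 0.05, against the same 18.9%. The largest difference was that of SOCS4, a member of the suppressor of cytokine signalling family, at -1.15 (SE 0.17, limma adjusted p = 0.100), with 4 probe sets between -1.15 and -0.038. Over the 35 tested pathway genes outside the 9 ligands, 8 higher and 10 lower genes had no overlap between PC9 and MTAC-P arrays, and the corresponding shares of all tested genes were 28.3% and 24.9%.

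**Figure D5:**
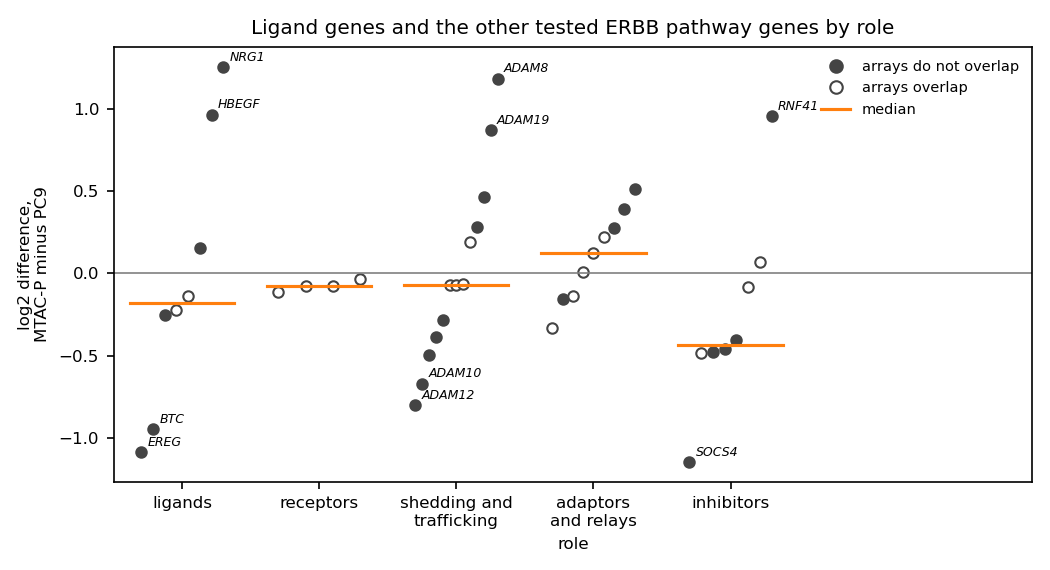
Log2 difference, MTAC-P minus PC9, of the 8 ligand genes and of the tested receptor, shedding, adaptor and inhibitor genes, with filled circles where the arrays of the lines do not overlap and orange lines for medians. The 4 receptors lie close to 0, while ligands, shedding genes and inhibitors spread to about 1 in both directions.

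Across the 4 arrays, the gene whose values followed HBEGF most closely was RNF41, by Euclidean distance between log2 values centred on each gene's mean (0.017). RNF41 encodes a ubiquitin ligase that lowers ERBB3 and was 1 of the genes of the inhibitor list. It read 6.70 and 6.59 in PC9 and 7.57 and 7.63 in MTAC-P, a difference of 0.95, and its 3 probe sets were all higher in MTAC-P, by 0.36 to 0.95. The next were SMARCB1 at a distance of 0.076 and PRKAA2 at 0.077. Of their probe sets above the dim value, all 3 of SMARCB1 but only 1 of 3 of PRKAA2 were higher in MTAC-P. For NRG1 the closest genes were CAVIN3 at 0.27, SFRP1 at 0.34 and TXNRD2 at 0.35. For BTC they were RC3H1 at 0.055, COMMD8 at 0.097 and FBXO32 at 0.11. All 4 probe sets of SFRP1 and 4 of 5 of TXNRD2 were higher in MTAC-P, and 2 of 3 of RC3H1 were lower. CAVIN3, COMMD8 and FBXO32 had 1 probe set each. All these counts, those of RNF41 included, take in the probe set by which the gene was matched, whose direction the match fixed. For PRKAA2 it was the only higher probe set of those above the dim value. With only 4 arrays and 14965 genes to choose from, close matches are found for many patterns, and likeness here is a description.

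Array medians over the table ran from 4.85 to 4.88, and the arrays of a line correlated over genes at 0.992 for PC9 and 0.990 for MTAC-P, against 0.980 to 0.990 between lines. All 6 epithelial markers had line means of 10.35 to 14.41, whereas the 4 lung lineage markers, NKX2-1 among them, lay between 4.71 and 5.10, not far above the dim value. The blood, fibroblast and endothelial markers had line means of at most 5.49 in both lines. The 12 poly-A spike-in probe sets were 0.71 higher in MTAC-P on the log2 scale, and the part of spike-in differences in the ligand values was not tested.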

How the data were processed

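Total RNA of PC9 and MTAC-P was labelled and measured on 4 arrays of 1 colour, with 2 arrays for each line and the dye Cy3, per the labels' protocols. The authors deposited log2 expression values, and each array has 1 value for every probe set. That the scale is log2 was read from the range of the values, 3.32 to 14.63. The background correction, normalization and summarization are not given in the sources used here. The submitters' processing notes name Agilent Feature Extraction 10.7, while the probe-set names are of Affymetrix type, and the sources do not settle this. The number of arrays limits the precision.

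Probe sets were named from GEO's platform annotation: 45253 had 1 symbol, 1327 several and 2713 none, and 93 were controls. Symbols were updated by gene identifier to GRCh38.p14. Each of 18239 genes was represented by its single-symbol probe set with the highest mean, and 3274 with a mean under the 25th percentile of non-control probe sets (4.14) were left out. MTAC-P was compared with PC9 in limma 3.58.1 under R 4.3.3 (2-sided, lmFit, then eBayes with a constant prior variance), with Benjamini-Hochberg adjustment over 14965 genes. SE are moderated. Single probe sets were fitted over all non-control probe sets. The fit was tested on simulated data with planted differences larger than those of the ligands. Whether it can call differences of the ligands' size was not tested. Plots used matplotlib 3.10.9 in Python 3.11.15.

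The named genes are all ligands, the receptors, EGF and NRG3, the gene with the largest difference of each role list, and the 3 genes most like HBEGF, NRG1 and BTC. ADAM17, ADAM10, ADAM19, ADAM12, ADAM9, RHBDF2, RHBDF1 and the chromosome 4 neighbours were named with their values already seen. The ligands and lists were chosen with earlier results of these data known. Other settings tried were a block for replicate number, median centring, quantile normalization, a dim filter at the 50th percentile, none at all, averaging all probe sets of a gene, an intensity trend, a robust prior, a pseudocount of 16 on the linear scale and leaving out each array.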

Additional observations from a re-analysis of the deposited data

How the results depend on the processing

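Of the ligand genes, HBEGF, BTC and NRG2 kept their sign in every alternative and probe set tried, and NRG4 did too, although NRG2 and NRG4 came close to 0 when 1 array was left out (0.028 and -0.029). The second BTC probe set was also close to 0, at -0.074 with overlapping arrays. The sign of TGFA turned when 1 array was left out (-0.63 to 0.36) and on other probe sets (0.34 and 0.010). It also turned on single probe sets of EPGN (0.10), EREG (0.067 and 0.39) and NRG1 (-0.26, -0.24 and -0.19). With the replicate number as a block, 4 of the 8 ligands passed limma's threshold, among 2075 genes or 13.9% of those tested: HBEGF at 0.96 (limma adjusted p = 0.000569), NRG1 at 1.26 (limma adjusted p = 3.35e-05), BTC at -0.95 (limma adjusted p = 0.000663) and EREG at -1.09 (limma adjusted p = 0.000156). The block also called 4 shedding genes and 2 inhibitors. That fit leaves 1 residual degree of freedom per gene, to which limma's prior added 29.4, against 2 and 4.38 in the main fit. The deviations of same-numbered arrays from their line means correlated at 0.28 over genes. There were only 2 pairs and no label for what a number stands for, so whether the arrays are paired was not tested. In the other settings 0 ligands passed, also when 1 array was left out, where the lone array is assumed to vary like the other line.

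The count of all genes past the threshold was 77 with the intensity trend, 1 with the 50th percentile filter, 1 with the pseudocount and 0 with the mean of all probe sets, and 2823 had an unadjusted limma p under 0.05. It ranged from 0, without MTAC-P replicate 1 or MTAC-P replicate 2, to 68, without PC9 replicate 1. Higher receptors numbered 1 with quantile normalization, 1 with the mean of all probe sets and 0 to 2 when 1 array was left out. Higher inhibitors numbered 1 with the 50th percentile filter and 1 to 2 when 1 array was left out, and the other ligands, of which only EGF was tested, had 0 to 1 higher gene. EPGN, NRG2 and NRG4 gave no value under the 50th percentile filter. Signal near the level of the background controls limits what can be said of these 3 genes, and the range of those controls also takes in NRG1 and BTC.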

Other observations

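The duplicates of a line differed by unequal amounts among the ligand genes. For EREG, replicate 1 exceeded replicate 2 by 0.82 in PC9 and 1.07 in MTAC-P, for TGFA by 1.00 and 0.45, for NRG1 by 0.42 and 0.88 and for BTC by 0.46 and 0.40. HBEGF had the closest duplicates of these genes, with differences of 0.094 and -0.049. Taken between arrays of the same number, MTAC-P minus PC9 was 0.89 and 1.04 for HBEGF, 1.49 and 1.03 for NRG1, -0.98 and -0.91 for BTC, -0.96 and -1.21 for EREG and -0.41 and 0.14 for TGFA. What the replicate numbers stand for was not tested.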
